A study of Mus musculus with 29 samples.

Results

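The D-type cyclins, their kinases CDK4 and CDK6, the INK4 inhibitors and the retinoblastoma protein were described in mouse neuroblastoma and in bone marrow. The 9 genes were Ccnd1, Ccnd2, Ccnd3, Cdk4, Cdk6, Cdkn2a, Cdkn2c, Cdkn2d and Rb1, chosen by name as members of one pathway, with earlier results of these data known. They were read by 24 probe sets that the platform annotation assigns to a single gene symbol, and the probe set of highest mean stood for each gene, as for all 18193 genes measured. The samples came from TH-MYCN mice of strain 129X1/SvJ, in which a human MYCN transgene is driven by the tyrosine hydroxylase promoter and tumours of the sympathetic lineage arise spontaneously. The 4 groups were 7 primary abdominal tumours and 2 total bone marrow samples with wild type caspase-8, and 17 primary abdominal tumours and 3 total bone marrow samples labelled as deficient in caspase-8. The labels give TH-MYCN as the genotype heading of every sample, marrow included, while the design text speaks of wt and transgenic mice, so no marrow sample could be assigned to a mouse without the transgene. They give no age, no treatment and no driver of the caspase-8 deficiency. Nor do they say which samples shared an animal, and the p-values therefore reflect sample-to-sample spread, which may be technical. Values are RMA expression on the log2 scale, a normalized hybridisation signal in which a difference of 1 is a doubling. Levels of different probe sets cannot be ranked against each other, so each gene was compared with itself across samples.

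D-type cyclins bind CDK4 or CDK6 in G1, and the active kinases phosphorylate the retinoblastoma protein. Phosphorylation releases E2F transcription factors, which switch on genes for DNA replication. INK4 proteins bind CDK4 and CDK6 and block their pairing with cyclin D. Most tissues use some of the 3 D cyclins and not others, sympathetic neuroblastoma is known for high cyclin D1, and blood-forming cells are known to rely on cyclins D2 and D3 with CDK6.

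The tissue labels held against marker genes. The mean of 12 sympathoadrenal markers was 10.03 ± 0.24 (SD, n = 24) in tumours and 4.31 ± 0.056 (SD, n = 5) in marrow, and 11 of the 12 were higher in tumours in the limma fit (Benjamini-Hochberg adjusted p under 0.05). The mean of 11 granulocyte markers was 4.12 ± 0.35 in tumours and 12.24 ± 0.14 in marrow, and all 11 were lower in tumours. Of 10 erythroid markers 9 were lower in tumours, as were all 11 B cell markers and all 8 T and NK cell markers measured. Caspase-8 itself was no clean check of the genotype labels. Among tumours, the 7 wild type ones averaged 5.88 ± 0.57 (SD) for Casp8 and the 17 deficient ones 5.62 ± 0.44 (SD). The groups overlapped, and the difference of -0.26 (SE 0.20) had a limma adjusted p of 0.9997. In marrow it read 9.46 ± 0.23 (SD, n = 2) and 9.14 ± 0.12 (SD, n = 3). No source used here says whether its probe set would detect the deficiency.

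The D cyclins and their kinases differed in level between the tissues, in both directions. Of the 9 genes, 2 were higher in tumours (Ccnd1 and Cdk4), 6 were lower (Ccnd2, Ccnd3, Cdk6, Cdkn2c, Cdkn2d and Rb1) and Cdkn2a did not pass the test (limma, all 4 groups in one model, tumour minus marrow averaged over genotypes). The tissues differed at most genes, so these counts need their background: 34.2% of all genes were called higher and 42.2% lower in tumours. A change of at least 4-fold was called for 7.43% of genes upward and 6.23% downward. Ccnd1 passed that mark upward and all 6 lower members passed it downward. The median difference of the 9 members was -2.28, against -0.10 for all genes. How many of all genes separated the tissues completely was not counted. The lack of overlap described for single members therefore has no such background and is not shown to be particular to them. Tumours and marrow are mixtures of cells, and in such bulk RNA fewer cells of a type and less RNA per cell cannot be told apart. Tissue also cannot be told apart from collection and handling, which the labels do not describe by tissue. One measure of RNA quality, the signal of the Gapdh and beta-actin control probe sets at the 3′ end minus that at the 5′ end, was 0.72 ± 0.18 (SD, n = 24) in tumours and 0.55 ± 0.10 (SD, n = 5) in marrow on the log2 scale. Its part in the tissue differences was not tested.

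**Figure D1:**
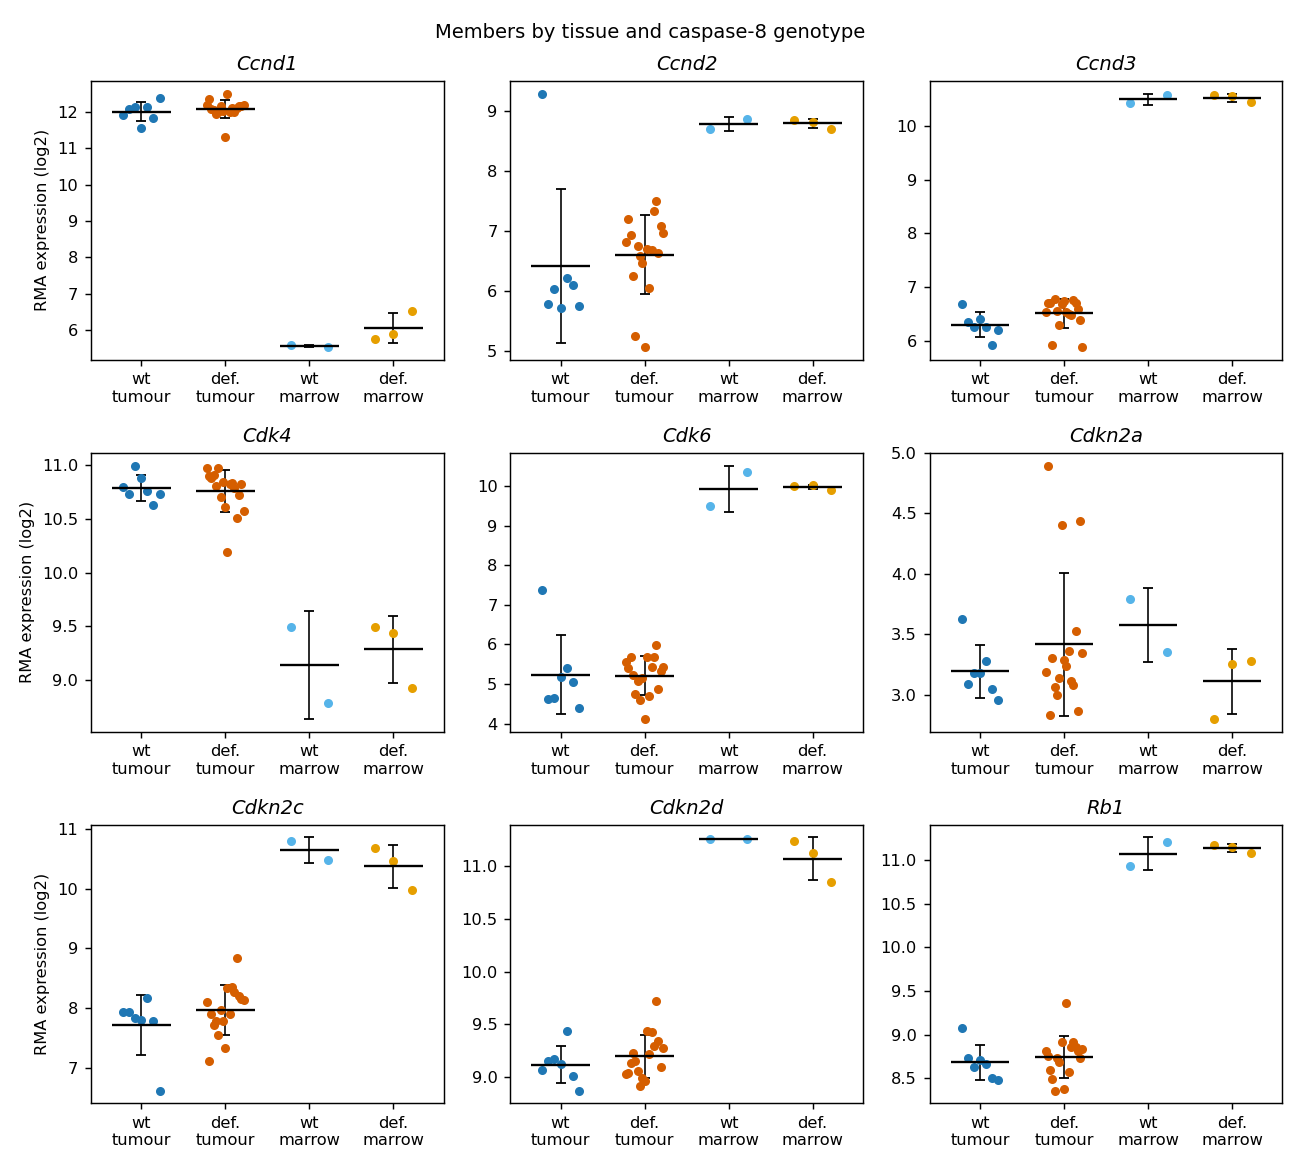
RMA expression (log2) of each of the 9 genes in 7 wild type tumours, 17 deficient tumours, 2 wild type marrow and 3 deficient marrow samples. Points are samples, horizontal bars are means and whiskers are SD. Ccnd1 and Cdk4 lie higher in every tumour than in any marrow sample. Cdk6, Ccnd3, Cdkn2c, Cdkn2d and Rb1 lie lower in every tumour. How many of all genes separate the tissues in this way was not counted. For Ccnd2 and Cdk6, 1 wild type tumour stands above the rest.

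Ccnd1, which encodes cyclin D1, gave the largest tissue difference of the group. It ran from 11.31 to 12.49 with a median of 12.10 in the 24 tumours. In marrow it read 5.59 and 5.55 in the 2 wild type samples and 5.75, 5.91 and 6.53 in the 3 deficient samples. Every tumour lay more than 4 log2 units above every marrow sample. The fitted difference was 6.22 (SE 0.13; 95% interval 5.96 to 6.49), a 74.8-fold higher signal in tumours with a limma adjusted p of 9.5e-27. Only 0.638% of the 18193 genes differed more between the tissues in either direction. Its 3 probe sets gave 5.09, 5.98 and 6.22. Within tumours it was among the steadier of the 9, with an SD of 0.24.

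Ccnd3, which encodes cyclin D3, went the other way, at -4.11 (SE 0.12; 17.2-fold; limma adjusted p 8.38e-23). Tumours ran from 5.88 to 6.77 with a median of 6.51. Marrow read 10.42 and 10.57 in wild type and 10.58, 10.56 and 10.44 in deficient samples. The groups were far apart, with no tumour within 3 log2 units of marrow, and 3.23% of all genes differed more between the tissues. The other probe sets of Ccnd3 also read lower in tumours, but by less, -2.05 and -2.48. Across the 24 tumours the 3 probe sets did not track each other (Pearson r from -0.22 to 0.16 between them), so tumour-to-tumour variation in Ccnd3 is poorly measured here.

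Ccnd2, which encodes cyclin D2, was also lower in tumours, at -2.28 (SE 0.39; 4.85-fold; limma adjusted p 6.84e-06), with the widest spread of the 3 cyclins. Tumours ran from 5.07 to 9.29 with a median of 6.62. Marrow read 8.71 and 8.87 in wild type and 8.86, 8.82 and 8.71 in deficient samples. The tumour at 9.29, wild type tumour 1, lay above all marrow samples, while the other 23 lay below them all. Without that tumour the difference was -2.52. All 7 probe sets of Ccnd2 read lower in tumours and were called, 6 of them between -2.57 and -1.80. The seventh, at a mean of 2.62 in tumours and 3.27 in marrow, gave -0.59.

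The cyclins were also set against each other within each sample. Ccnd1 minus Ccnd2 averaged 5.50 in tumours and -2.93 in marrow, a shift of 8.43. For Ccnd1 minus Ccnd3 the shift was 10.25. Ccnd2 minus Ccnd3 shifted by 1.82, from -1.72 ± 0.014 (SD, n = 5) in marrow to 0.10 ± 0.84 (SD, n = 24) in tumours, so Ccnd3 differed more than Ccnd2 by these probe sets. That order depends on the probe set, since the other 2 of Ccnd3, at -2.05 and -2.48, lay within the range of 6 of the 7 of Ccnd2. In each of these 3 balances, and in that of the kinases, an exact two-sided permutation over 118755 splits gave p = 8.42e-06, the smallest it can give (1.68e-05 adjusted over 8 balance tests). For Ccnd1 minus Ccnd3 and Cdk4 minus Cdk6 this outcome followed from the single genes. Each gene of those pairs already separated all tumours from all marrow samples, in opposite directions. For Ccnd1 minus Ccnd2 nearly the same held, with 23 of 24 tumours below marrow in Ccnd2. Those p-values therefore add no support beyond the single genes. For Ccnd2 minus Ccnd3 the separation was narrow, with the lowest tumour at -1.66 and the highest marrow sample at -1.70, which the p-value does not show. These balances have meaning only as shifts between samples, because the probe sets' own heights differ.

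**Figure D2:**
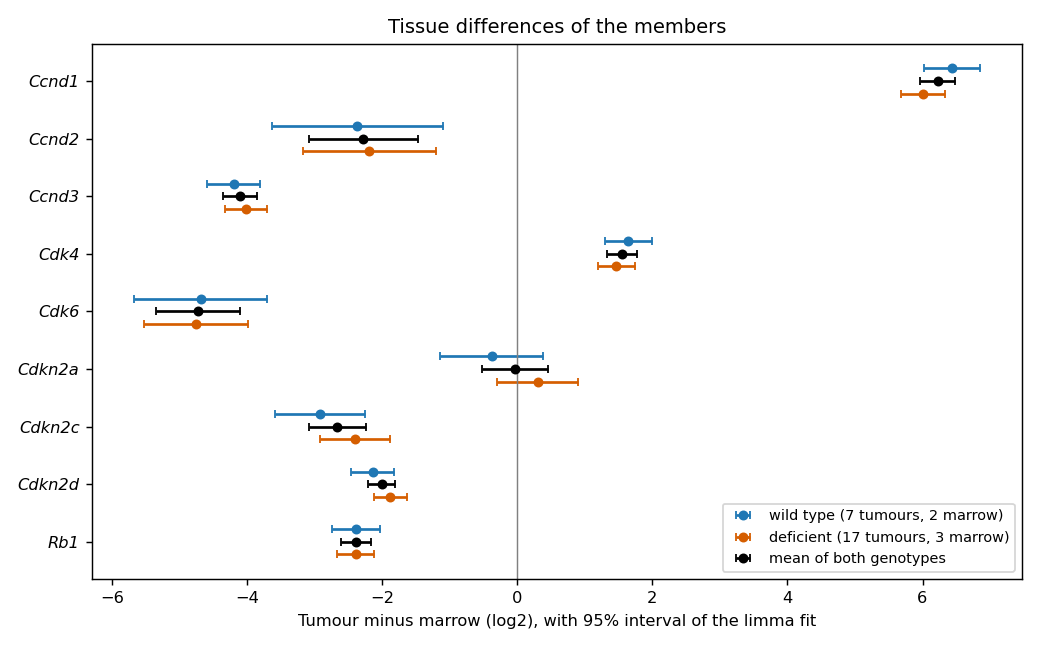
Tumour minus marrow differences (log2) of the 9 genes with 95% intervals from the limma fit, for wild type caspase-8 (7 tumours, 2 marrow), deficient caspase-8 (17 tumours, 3 marrow) and the mean of both. Ccnd1 stands at 6.22, Cdk6 at -4.72 and Ccnd3 at -4.11, and only the intervals of Cdkn2a include 0.

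The kinases also differed in opposite directions, with Cdk4 well above the array medians in both tissues. Cdk4 was higher in tumours by 1.56 (SE 0.11; 2.94-fold; limma adjusted p 8.68e-14). It ran from 10.19 to 10.99 in tumours with a median of 10.79, and read 9.50 and 8.79 in wild type and 9.49, 9.44 and 8.93 in deficient marrow. All 24 tumours lay above all marrow samples, which was not counted over all genes, the nearest being deficient tumour 10 at 10.19. That tumour had granulocyte and erythroid marker means of 5.05 and 5.43 and an endothelial mean of 6.63, each at or near the top of the tumours, and a 3′ minus 5′ control signal of 1.01, and their part in its low Cdk4 was not tested. The 3 probe sets gave 1.38, 1.56 and 1.85.

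Cdk6 was lower in tumours, at -4.72 (SE 0.30; 26.4-fold; limma adjusted p 1.77e-14), the largest fall among the 9 genes. Its tumours ran from 4.12 to 7.37 with a median of 5.21, against 9.50 and 10.34 in wild type and 9.99, 10.03 and 9.91 in deficient marrow. No tumour came within 2 log2 units of marrow. Wild type tumour 1, which was high in Ccnd2, was also the highest tumour for Cdk6 at 7.37, and the next stood at 5.98. Only 367 of 18193 genes, 2.02%, differed more between the tissues. A second probe set gave -4.16, and the third -1.79 with little tracking of the other 2 across tumours (r of 0.19 and 0.17). Cdk4 minus Cdk6 shifted by 6.27 between the tissues, from -0.73 in marrow to 5.54 in tumours.

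The RefSeq promoter windows of the kinases, 250 bases before to 50 after the annotated start in GRCm38.p6, are shown because the genes moved in opposite directions in a tumour driven by MYCN, whose protein with MAX binds the E-box CACGTG. The capitals mark that word, searched on both strands, on which it reads the same. The Cdk4 window lies at chr10:127063285-127063584 on the plus strand and the Cdk6 window at chr5:3343643-3343942, also on the plus strand.
Cdk4: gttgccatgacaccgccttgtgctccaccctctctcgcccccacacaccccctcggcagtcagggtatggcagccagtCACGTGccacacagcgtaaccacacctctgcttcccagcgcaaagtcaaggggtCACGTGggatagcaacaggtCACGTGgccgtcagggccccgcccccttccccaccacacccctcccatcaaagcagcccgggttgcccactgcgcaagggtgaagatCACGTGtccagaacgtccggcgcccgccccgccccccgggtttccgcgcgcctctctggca
Cdk6: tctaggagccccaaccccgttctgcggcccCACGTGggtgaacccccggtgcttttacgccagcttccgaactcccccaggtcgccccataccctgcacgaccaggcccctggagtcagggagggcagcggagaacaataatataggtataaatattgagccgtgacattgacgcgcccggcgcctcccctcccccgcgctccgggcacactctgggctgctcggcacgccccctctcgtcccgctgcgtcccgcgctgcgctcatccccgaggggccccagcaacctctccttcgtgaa
The Cdk4 window holds 4 E-boxes, beginning at its bases 79, 133, 153 and 240, so that the nearest begins 11 bases before the start. The Cdk6 window holds 1, beginning at base 31, or 220 bases before the start. The windows are not alike, since that of Cdk4 spans the gene's first annotated base, 127063535. The Cdk6 gene is annotated from base 3341004, upstream of its window, and no window at that base was listed or searched. Of 32851 promoter windows of the same length, 7.15% hold at least 1 such word and 8 windows (0.0244%) hold 4 or more. The mark of 4 was taken from the Cdk4 window itself, so that share is no test of Cdk4. Windows were listed for 6 of the 9 genes, 9 windows in all. E-boxes were in 3 of them, the last being the second window of Cdkn2c. A word in a window is a description of the sequence and shows no binding in these samples. Its part in the level of either kinase was not tested.

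Of the 3 INK4 inhibitors, Cdkn2c and Cdkn2d were lower in tumours and Cdkn2a did not pass the test. Cdkn2c, which encodes p18, was lower in tumours, at -2.66 (SE 0.21; 6.32-fold; limma adjusted p 1.24e-12). Tumours ran from 6.62 to 8.84 with a median of 7.92, and marrow read 10.80 and 10.49 in wild type and 10.67, 10.46 and 9.98 in deficient samples. Cdkn2d, which encodes p19 of the INK4 family, was lower, at -2.01 (SE 0.099; 4.02-fold; limma adjusted p 2.65e-17). Its tumours lay between 8.87 and 9.72 with a median of 9.14, against 11.26 and 11.26 in wild type and 11.24, 11.13 and 10.85 in deficient marrow. For both genes all 24 tumours lay below all 5 marrow samples, a separation that was not counted over all genes.

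Cdkn2a, whose locus encodes both p16INK4a and p19ARF from separate starts, was low in both tissues, with a difference of -0.037 (SE 0.24; 95% interval -0.52 to 0.45; limma adjusted p 0.89). Marrow read 3.79 and 3.36 in wild type and 2.80, 3.25 and 3.28 in deficient samples. Tumours had a median of 3.19, and 21 of 24 lay between 2.83 and 3.63. The other 3, all deficient in caspase-8, read 4.90 (deficient tumour 2), 4.44 (deficient tumour 16) and 4.41 (deficient tumour 8), above every marrow sample. They came from both runs of title numbers, and 17 of the 24 tumours were deficient. RMA compresses low signals, and the single probe set does not show which of the 2 transcripts was read. Cdkn2b, which encodes the remaining INK4 inhibitor, p15, was higher in tumours by 0.34 (SE 0.12; limma adjusted p 0.014), from 3.94 to 4.28. These are low signals too, and Cdkn2b was called within neither genotype (limma adjusted p 0.088 in wild type and 0.078 in deficient samples).

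The upstream of the 2 Cdkn2a windows, at chr4:89294570-89294869 on the minus strand, is the only 1 of the 9 windows that holds an E2F word. It is shown because the ARF transcript starts there and E2F is the output of the pathway under study. Capitals mark the match, which begins 99 bases before the start.
Cdkn2a: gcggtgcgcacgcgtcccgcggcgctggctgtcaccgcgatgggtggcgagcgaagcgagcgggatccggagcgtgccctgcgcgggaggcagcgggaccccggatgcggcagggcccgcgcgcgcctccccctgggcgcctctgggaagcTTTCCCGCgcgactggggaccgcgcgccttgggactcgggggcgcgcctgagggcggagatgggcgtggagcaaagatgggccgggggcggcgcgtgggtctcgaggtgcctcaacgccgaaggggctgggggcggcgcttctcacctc
The words searched, on both strands, were TTTGGCGC, TTTCCCGC, TTTCGCGC and TTTGCCGC, which do not overlap the E-box, and 2.26% of the 32851 windows hold at least 1.

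Rb1, the substrate that the D cyclin kinases inactivate, was lower in tumours, at -2.39 (SE 0.11; 5.25-fold; limma adjusted p 3.87e-18). Tumours ran from 8.36 to 9.36 with a median of 8.73, and marrow from 10.94 to 11.21, with values of 10.94 and 11.21 in wild type and 11.17, 11.15 and 11.08 in deficient samples. The tissues did not overlap, a separation that was not counted over all genes. Its second probe set gave -1.59.

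The tissue differences were alike in direction in both genotypes. Within wild type caspase-8 the same 2 genes were higher and the same 6 lower, where 28.7% of all genes were called higher and 33.1% lower. Within deficient samples the same held, with 32.6% and 36.7% of all genes called. Ccnd1 differed by 6.44 (SE 0.20) in wild type and 6.01 (SE 0.16) in deficient samples, and Cdk6 by -4.68 (SE 0.48) and -4.76 (SE 0.38). Cdk4 differed by 1.64 and 1.47, Ccnd3 by -4.20 and -4.01, and Ccnd2 by -2.37 and -2.19. For Cdkn2a the estimates had opposite signs, -0.38 (SE 0.37) and 0.31 (SE 0.29), neither called. The test of the difference between genotypes in the tissue effect called none of the 9, where 0.319% of all genes were called. Its smallest adjusted p among them was 0.76, for Ccnd1 at -0.43 (95% interval -0.95 to 0.10). The marrow genotypes differed in sex, as given below. In tumours Xist ran from 4.47 to 12.47 in wild type and from 4.68 to 12.70 in deficient ones. Genotype and sex therefore cannot be told apart on the marrow side of this test, and tissue differences within a genotype share that limit.

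The study compared mice labelled as wild type or deficient for caspase-8, a protease of death receptor signalling. Caspase-8 genotype within tumours gave no call for any of the 9 genes. No gene of the 18193 was called in that limma comparison (0%), and 583 had an unadjusted p under 0.05, none of them a member. That is a smaller share of the genes than the 0.05 such a cut-off passes by chance. Ccnd3 came nearest. It averaged 6.51 ± 0.27 (SD) over the 17 deficient tumours, against 6.30 ± 0.23 (SD) over the 7 wild type ones. That difference was 0.22 (95% interval -0.015 to 0.45; unadjusted p 0.065, adjusted 0.9997), and the groups overlapped. Of the 3 probe sets of Ccnd3, 2 read higher and 1 lower in deficient tumours, with differences from -0.056 to 0.22. Ccnd1 differed by 0.071 (-0.15 to 0.29) and Cdk4 by -0.032 (-0.20 to 0.13). Cdkn2d (0.078) and Rb1 (0.062) had intervals of similar width. The intervals were wide for Ccnd2 (0.19, from -0.57 to 0.95), Cdk6 (-0.026, from -0.60 to 0.55) and Cdkn2c (0.25, from -0.14 to 0.63). Cdkn2a differed by 0.22 (-0.23 to 0.67), with all 3 high tumours in the deficient group, which holds 17 of the 24 tumours. The within-sample balances of cyclins and of kinases did not separate the genotypes in the tumours (exact permutation over 346104 splits, differences from -0.15 to -0.0057, adjusted p from 0.67 to 0.99).

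The labels number the tumours in a lower and a higher run, with 3 wild type and 7 deficient tumours in the first and 4 and 10 in the second. No source used here says what the runs stand for. Estimates within them had opposite signs for 6 of the 9 genes. Ccnd2 was -0.49 in the lower run and 0.70 in the higher, Cdk6 was -0.37 and 0.23, and Cdkn2c was -0.17 and 0.54. Rb1 was -0.18 and 0.24, Cdkn2d was -0.047 and 0.17, and Cdk4 was 0.038 and -0.078. Wild type tumour 1 is 1 of the 3 wild type tumours of the lower run. Without it, Ccnd2 differed by 0.67 and Cdk6 by 0.33 between the genotypes over all other tumours. None of these estimates was called. Endothelial marker genes had a higher mean in deficient tumours for 14 of 14, 8 with an unadjusted p under 0.05 and none called, and the 3′ minus 5′ control signal was 0.76 ± 0.18 (SD) in them against 0.62 ± 0.15 (SD) in wild type tumours. The part of either in the genotype differences was not tested.

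In marrow the genotype groups also gave no call among the 9, with 0.022% of all genes called (4 genes in limma). An unadjusted limma p under 0.05 was found for 737 genes, also a smaller share than 0.05. Ccnd1 was 0.50 higher in the deficient samples (95% interval -0.092 to 1.09), resting on the sample at 6.53, and 0.26 without it. Cdkn2a was at -0.46 (-1.0 to 0.077), Cdkn2c at -0.27, Cdkn2d at -0.18 and Cdk4 at 0.14, and Ccnd2, Ccnd3, Cdk6 and Rb1 lay between 0.011 and 0.063. Genotype and sex cannot be told apart in marrow. Xist, the RNA of the inactive X chromosome, averaged 11.89 ± 0.31 (SD) over the 3 deficient marrow samples, against 5.65 ± 0.77 (SD) over the 2 wild type ones, and the Y-linked Eif2s3y averaged 2.68 against 9.34.

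The other genes of the pathway moved in both directions. Of 35 such genes, all measured, 16 were higher in tumours, 14 lower and 5 not called, where 34.2% of all genes were higher and 42.2% lower, so the count of lower genes was near the background. The list had a median difference of 0.060 against -0.10 for all genes. The 4 largest rises were E2f5 (2.37, SE 0.12), a repressor of the E2F family, Bmi1 (2.26, SE 0.076), the polycomb protein that represses the INK4a-ARF locus, Cdkn1c (1.75, SE 0.29), the p57 inhibitor, and Gsk3b (1.65, SE 0.093), the kinase that marks cyclin D1 for destruction. The 4 largest falls were E2f2 (-3.20, SE 0.11), an activating E2F, Tfdp2 (-2.93, SE 0.13), an E2F partner, E2f8 (-2.22, SE 0.12), an atypical repressor, and Cdk2 (-1.73, SE 0.12), the partner of cyclins E and A.

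By role, of 5 cyclin E, cyclin A and CDK2 genes, 4 were lower in tumours, with Ccne1 at -0.96 and Ccne2 at -1.72, and Ccna1 was not called at 0.049. These groups are small beside a background of 42.2% of all genes lower, and none was tested as a group. Both other pocket proteins were lower, Rbl1 (p107) at -1.42 and Rbl2 (p130) at -1.03, as was Rb1. Among the activating E2Fs, E2f1 (0.53) and E2f3 (0.86) were higher and E2f2 lower. The CIP/KIP inhibitors Cdkn1a (p21) and Cdkn1b (p27) were lower, at -0.58 and -0.24. Cdkn1a was at -0.94 within wild type and -0.23 within deficient samples (limma adjusted p 0.041 and 0.52). The difference between these was not called (limma adjusted p 0.81). Cdkn1b was at -0.26 and -0.23 (limma adjusted p 0.051 and 0.023). Cdc37, the chaperone that loads CDK4, was higher by 0.47, and of the 3 regulators of the INK4a-ARF locus Bmi1 and Dmtf1 (1.07) were higher and Cbx7 was at 0.038, not called. Of the 4 genes for cyclin D turnover, Gsk3b and Fbxo31 (1.59) were higher, Fbxo4 lower (-0.84) and Ambra1 not called at 0.50.

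**Figure D3:**
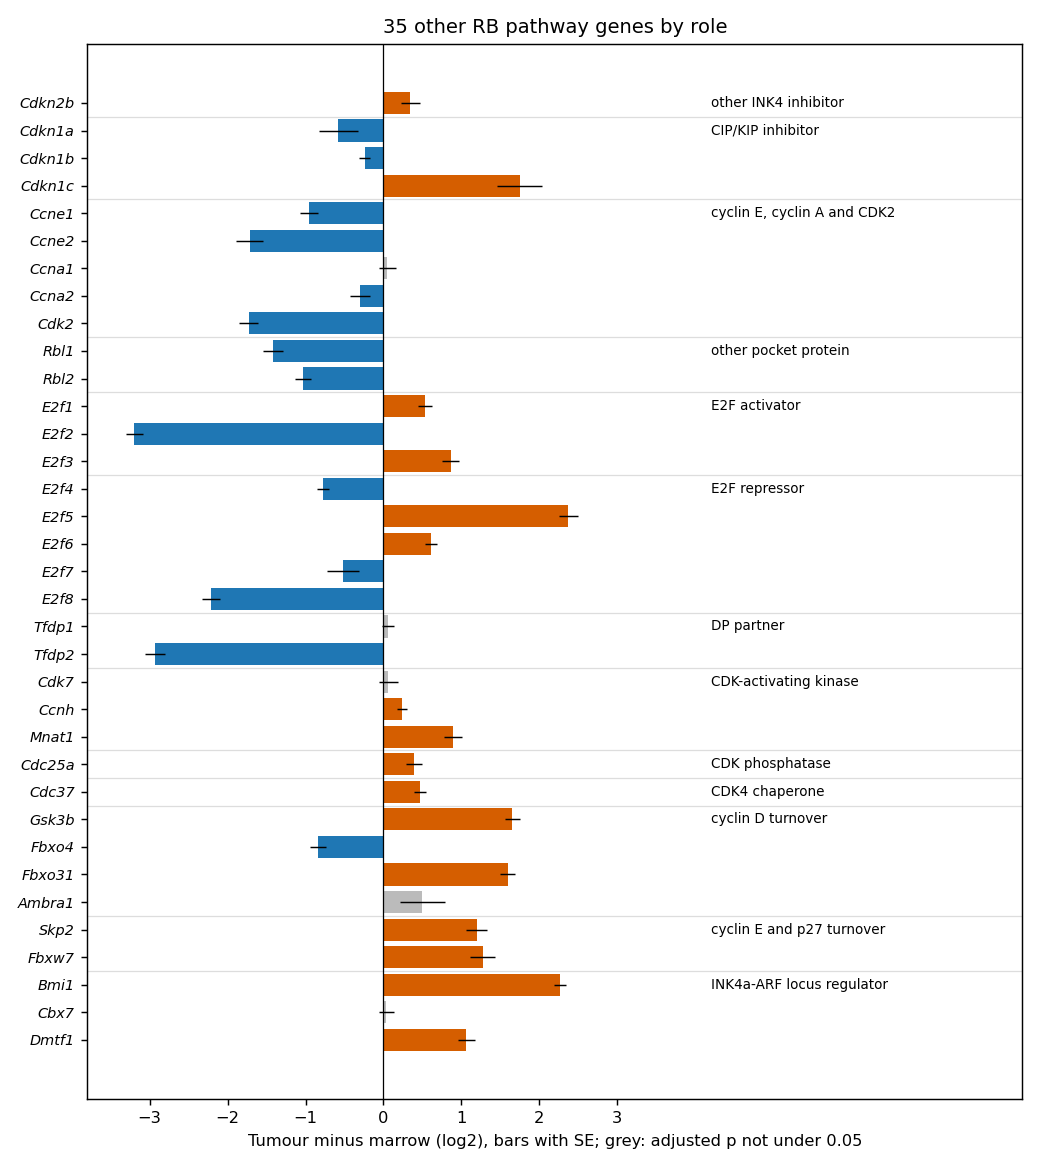
Tumour minus marrow difference (log2) with its SE for 35 other genes of the RB pathway, grouped by role. Orange bars are higher and blue bars lower in tumours at an adjusted p under 0.05, and grey bars did not pass. The bars for E2f5 and Bmi1 reach 2.37 and 2.26, and those for E2f2 and Tfdp2 reach -3.20 and -2.93.

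Of 21 E2F target genes measured, 4 were higher in tumours and 12 lower, where 34.2% of all genes were higher and 42.2% lower. Their median was -0.44, against -0.10 for all genes, and the list itself was not tested. The 4 higher were Dut (1.0), Cdc45 (0.53), Prim1 (0.25) and Rpa2 (0.21). The largest falls were Cdc6 (-2.14), Tk1 (-2.09), Orc1 (-2.01) and Pola1 (-1.28), genes of replication licensing, nucleotide salvage and DNA synthesis. Of 11 mitotic genes, Cdc20 (0.61), Plk1 (0.40) and Bub1 (0.34) were higher and Mki67 (-0.96), Ccnb2 (-0.92), Aurkb (-0.67) and Birc5 (-0.55) lower, with a median of -0.13, near that of all genes and with no larger a share called in either direction. Bone marrow is itself a dividing tissue, so this contrast sets one proliferating tissue against another.

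None of these genes was called for caspase-8 genotype in either tissue. In tumours the smallest unadjusted p values of the 35 belonged to Ccna1 (0.21), E2f2 (0.22), E2f1 (0.16) and E2f4 (0.14), where the numbers are log2 differences, each with a limma adjusted p of 0.9997. In marrow they belonged to Cbx7 (0.63), Tfdp2 (0.53), Cdkn1a (-0.56) and Fbxw7 (-0.51).

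Among tumours, Ccnd2 (SD 0.86) and Cdk6 (SD 0.65) varied most of the 9 genes, and they varied together. Over the 24 tumours and 36 pairs of the 9 genes, 4 pairs passed Benjamini-Hochberg adjustment in both Pearson's and Spearman's measure by permutation (100000 resamples). Ccnd2 and Cdk6 had r = 0.89 and rho = 0.82, both with p = 1e-05, the smallest the resamples can give, and 0.00036 adjusted. Without wild type tumour 1 and deficient tumour 9, the farthest from the median in Ccnd2, r was 0.74, and it was 0.92 in the lower and 0.85 in the higher run. Rb1 went with both, at r = 0.66 and rho = 0.72 with Ccnd2 (permutation p adjusted 0.012 and 0.0018) and r = 0.65 and rho = 0.68 with Cdk6 (0.013 and 0.0032). Without the 2 farthest samples these were 0.56 and 0.55, and in the lower and higher run 0.85 and 0.65 for Ccnd2, and 0.69 and 0.74 for Cdk6.

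The fourth pair was Cdkn2c with Cdkn2d, at r = 0.77 and rho = 0.71 (permutation p adjusted 0.00054 and 0.0019), and 0.65 without the 2 farthest tumours. It did not hold within both runs, being 0.87 in the higher and -0.019 in the lower. Ccnd1 and Cdk4, the members high in tumours, had r = -0.15 with each other (permutation p 0.46) and passed with no other member.

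**Figure D4:**
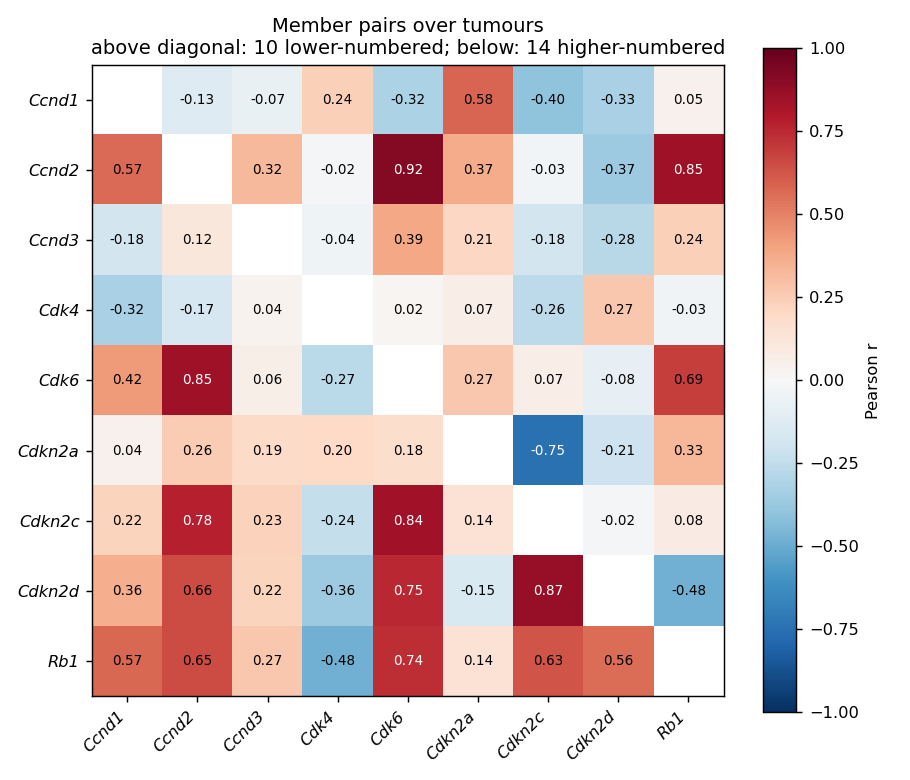
Pearson r between pairs of the 9 genes across tumours, with the 10 lower-numbered tumours above the diagonal and the 14 higher-numbered below it. Ccnd2 with Cdk6 reads 0.92 and 0.85 in the 2 runs, while Cdkn2c with Cdkn2d reads -0.02 and 0.87.

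The level of Cdk6 in tumours went with macrophage markers. Against the mean of 12 such genes, Cdk6 had r = 0.85 and rho = 0.79 (permutation p adjusted over 135 relations of the 9 genes with 15 measures, 0.0014 and 0.0027). It was 0.74 without the 2 tumours farthest in the marker mean and 0.89 and 0.88 in the lower and higher run. Wild type tumour 1 had the highest macrophage mean, 8.78, and the highest B cell mean, 5.59, with the lowest sympathoadrenal mean of all tumours, 9.44. Cdk6 also passed with B cell markers (r = 0.83 and rho = 0.66, adjusted permutation p 0.0020 and 0.026), which read 4.66 ± 0.26 in tumours and 7.13 ± 0.64 in marrow, and r was 0.57 without the 2 farthest.

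Ccnd2 had r = 0.71 and rho = 0.56 with the macrophage mean, and only Pearson's r passed (adjusted permutation p 0.012 and 0.067). It fell to 0.41 without the 2 farthest tumours. With adipocyte markers Ccnd2 passed in both measures (r = 0.63 and rho = 0.60, adjusted permutation p 0.018 and 0.036), and r was 0.60 without the 2 farthest. Rb1 passed with endothelial markers (r = 0.58 and rho = 0.66, 0.046 and 0.026), with r of 0.61 without the 2 farthest. Cdk4 passed with the mean of the 35 pathway genes (r = 0.67 and rho = 0.62, 0.012 and 0.036), and r fell to 0.47 without deficient tumours 9 and 10, the farthest in that mean. These 5 relations were all that passed in both measures, and Ccnd1, Ccnd3, Cdkn2a, Cdkn2c and Cdkn2d had none. The part of other cell types in the tumour values of Cdk6 and Ccnd2 was not tested further.

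**Figure D5:**
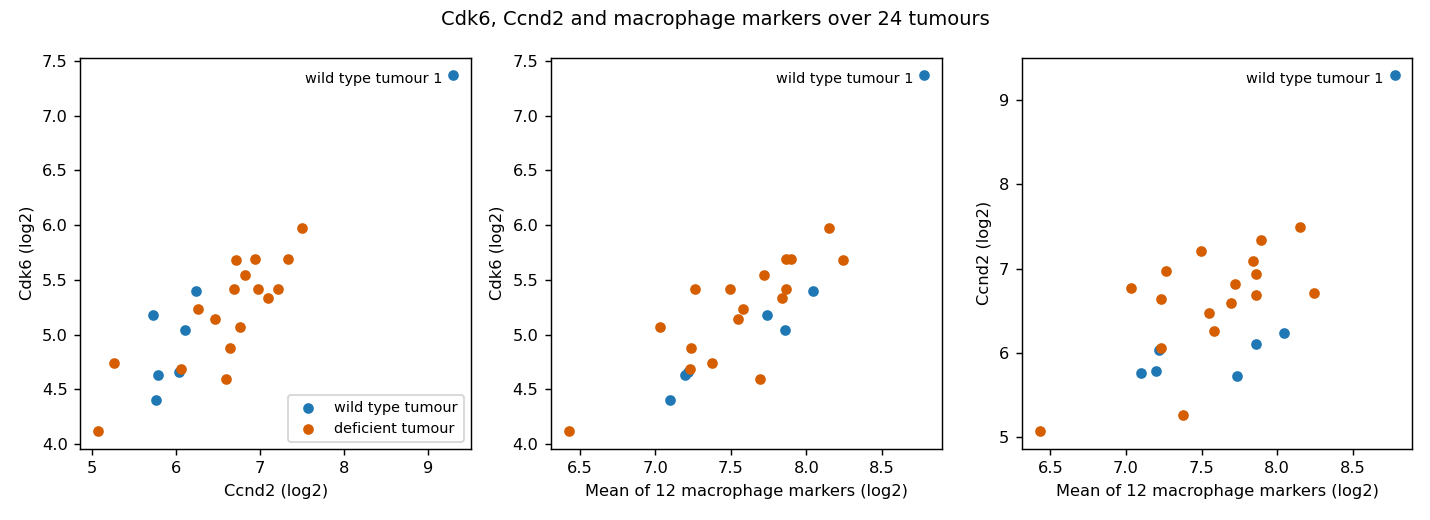
Cdk6 against Ccnd2, and each against the mean of 12 macrophage markers, in 24 tumours (all axes RMA expression, log2). Blue points are 7 wild type and orange points 17 deficient tumours. The point at the upper right of each panel is wild type tumour 1, and r is 0.89, 0.85 and 0.71 from left to right.

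The genes most like each member across the 24 tumours, by Pearson's r over all 18193 genes, were given as a description. For Cdk6 they were Ms4a6c, Fcgrt and Il16, with r of 0.95, 0.94 and 0.94. For Ccnd2 they were Cast, Wls and Samd9l (0.93, 0.92 and 0.91). Cdk4 was nearest to Pitrm1, a mitochondrial peptidase (0.92), Sf3b5, a splicing factor subunit (0.88), and Mif (0.86). Rb1 was nearest to Msrb1, Cnn2 and Arhgef5 (0.84, 0.83 and 0.83). Without the 2 tumours farthest in the member, these 12 values lay between 0.66 and 0.89.

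Ccnd1 had less close neighbours, Dmrtb1, Pknox1 and Trip10 (0.77, 0.76 and 0.76), and Ccnd3 had Tspan12, Fam241a and St6galnac5 (0.74, 0.73 and 0.73). Without the 2 tumours farthest in the member, r was 0.59, 0.62 and 0.58 for Ccnd1, and 0.66, 0.66 and 0.65 for Ccnd3. Cdkn2c and Cdkn2d were each other's nearest gene of all. Next came Plekhg3 and Yaf2 for Cdkn2c (0.77 and 0.73) and Elmo3 and Gulo for Cdkn2d (0.72 and 0.72). With the same omission these were 0.61 and 0.66 for Cdkn2c, and 0.49 and 0.64 for Cdkn2d. Cdkn2a was nearest to Ccng1, a p53 target (0.75), then Gm36243 and Lefty1. In the 3 tumours of highest Cdkn2a, Ccng1 lay between 9.43 and 9.85, and in the other 21 between 8.53 and 9.59. Without deficient tumours 2 and 16 the relation of Cdkn2a with Ccng1 was 0.49, so it rests in large part on them.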

How the data were processed

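RNA extracted with Trizol was labelled in 2 cycles from 100 ng, per the labels' protocols. The deposited values are log2 expression that the authors computed with RMA in Partek 6.6, per the submitters' processing notes. This method compresses low signals, and its quantile step can hide a shift shared by most genes. Precision is limited by the number of arrays. Of 45101 probe sets, 64 controls were left out. The platform annotation gave 34945 probe sets 1 gene symbol, 932 several and 9160 none, and the probe set of highest mean stood for each of 18193 genes. No 2 of the 29 arrays were identical.

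Samples were grouped by their labels for genotype and tissue. Tissue and interaction were tested with limma 3.58.1 (R 4.3.3; lmFit, eBayes; Benjamini-Hochberg adjusted p under 0.05 over all genes) with the 4 groups in one model, and genotype within each tissue alone. The fit was also run on simulated data with known differences and independent noise, which does not copy the uneven spread of these samples. Alternatives changed the probe set rule, the low-signal filter, the normalization, the eBayes options, the arrays weighted or left out and the run of title numbers. For genotype in tumours, Xist or the run of title numbers was also added as a term. Balances were tested by exact two-sided permutation and correlations by permutation. The 9 members and the gene lists were chosen with earlier results of these data known. Named genes were the members, Casp8, per list the 4 called genes of largest difference each way, pathway genes by role, the 4 pathway genes of smallest p for genotype, and the 3 genes most like each member. Sequences are from RefSeq tables of GRCm38.p6.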

Additional observations from a re-analysis of the deposited data

Results flagged for a closer look

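In the 7 wild type tumours, 13 measures (9 genes and 4 balances) were examined for a sample far from the others, by the gap to the nearest sample over the range against Dixon's critical value of 0.568. Chance flags about 1 in 20 such groups, and the measures share samples. Wild type tumour 1 stood apart in 6 of them. It was the highest in Ccnd2 at 9.29, with the next at 6.23, in Cdk6 at 7.37, with the next at 5.40, and in Rb1 at 9.08, with the next at 8.73. It was accordingly the lowest in Ccnd1 minus Ccnd2 at 2.60 and in Cdk4 minus Cdk6 at 3.42, and the highest in Ccnd2 minus Ccnd3 at 2.60. Wild type tumour 7 was the lowest in Cdkn2c at 6.62, with the next at 7.78.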

How the results depend on the processing

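For 86 results, 2655 alternative values were computed, of which 2578 stayed the same, 61 changed sign and 16 counts moved. Staying the same meant keeping direction and side of the threshold, or, for counts, staying within 1.5 times. Balances with a sample left out were not tested against the threshold. They counted as the same if they kept direction and moved by less than the larger group SD. The 8 called tissue differences kept direction and call under every alternative run (mean of probe sets, a filter at a mean log2 of 5, median centring, a second quantile normalization, trended and robust eBayes, array weights, higher run only, each sample left out, and, chosen after seeing the data, each other probe set). The filter removed Cdkn2a, which has no value there. Sign changes were in uncalled values, and their cause was not tested. Cdkn2a between tissues was 0.14 after a second quantile normalization. In the lower run alone, genotype differences in tumours were -0.49 for Ccnd2, 0.038 for Cdk4, -0.17 for Cdkn2c, -0.047 for Cdkn2d and -0.18 for Rb1. In the higher run alone Cdk6 was 0.23 and Ccnd2 minus Ccnd3 0.37, and with array weights Cdk6 was 0.16. In marrow, Ccnd2 was -0.0011 after median centring and Ccnd3 -0.31 with the mean of probe sets. With the filter, where fewer genes were tested, the genes called lower in tumours were 3343 over both genotypes, 2897 in wild type and 3122 in deficient samples. For genotype in marrow the 4-group fit called 46 genes higher and 37 lower, and the filter and the mean of probe sets each called 1 lower. For the interaction the filter called 12 higher and 7 lower, and a second quantile normalization 50 and 54.

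Leaving out each sample in turn, Cdkn2a between tissues ran from -0.15 to 0.072. Genotype differences in tumours ran from -0.0027 to 0.13 for Ccnd1, -0.058 to 0.0033 for Cdk4 and -0.17 to 0.33 for Cdk6. In marrow they ran from -0.071 to 0.092 for Ccnd2, -0.042 to 0.10 for Ccnd3, -0.21 to 0.50 for Cdk4, -0.37 to 0.47 for Cdk6 and -0.071 to 0.20 for Rb1, with either wild type marrow sample left out, where the lone sample is assumed to vary like the rest. The interaction ran from -0.53 to 0.18 for Cdk4, -0.50 to 0.34 for Cdk6 and -0.14 to 0.13 for Rb1, and its calls over all genes from 9 to 227 higher and from 23 to 195 lower, the low counts without wild type marrow sample 1 and the high ones without sample 2. The genotype balances ran from -0.62 to 0.053 for Ccnd1 minus Ccnd2, -0.16 to 0.39 for Ccnd2 minus Ccnd3 and -0.36 to 0.13 for Cdk4 minus Cdk6. No paired analysis was possible because the replicate numbers are accession order and the labels tie no samples together.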
